A study of Mus musculus with 16 samples.

Results

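GFP-labelled 4T07 cells that outlived an attack by GFP-specific T cells late in tumour growth were compared with cells of tumours that were never attacked. 4T07 is a mouse mammary carcinoma line. The comparison takes in 7 of the 16 libraries of the study, 3 of surviving GFP cells and 4 of control cells, and every gene with enough counts. In the first group, 250000 GFP-transduced and mCherry-transduced 4T07 cells in equal parts were grown as mammary fat pad tumours in Balb/cJ x C57BL/6J hybrid mice. These mice received 7000000 Jedi T cells, whose receptor recognises a peptide of GFP and which here lacked PD1, by tail vein on day 15, and the tumours were taken 7 days later. The GFP cells still present were sorted, 1 library from each of 3 tumours. Control tumours held mCherry-transduced 4T07 cells only and received no Jedi T cells, with 1 library from each of 4 tumours, and the labels do not give the day on which they were taken. All 7 libraries were sequenced in run 2 of the study. The groups share the cell line, the host strain and the tissue digestion (20 minutes at 37 degrees Celsius). They differ in the reporter (GFP or mCherry) and so in the colour sorted, in the T cells, and in mixed or single-colour tumours. Whether the sorting gates, the day of harvest, the number of cells injected and the route of RNA extraction were alike is not given. GFP cells that met no Jedi T cells were not sequenced. The reporter, the attack, the mix of colours and any difference in harvest, sorting, cell number or extraction therefore cannot be told apart. Further points of reference are given where they help: the untargeted mCherry cells of the same 3 attacked tumours, which carry the reporter of the controls, and the GFP to mCherry difference within those tumours.

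T cells kill targets that present antigen on MHC class I, and the interferon they release drives target cells to make more of the presentation machinery through IRF1 and NLRC5. Interferon also induces antiviral proteins, guanylate-binding GTPases and PD-L1, the ligand that restrains T cells through PD1. Cells outside the division cycle make little of the replication and mitosis proteins, whose genes are held down by the DREAM complex and released by E2F and by B-MYB with FOXM1.

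The GFP libraries held 21183324 to 24880582 counts and the controls 24367417 to 32808354, with 1.36% to 1.5% and 1.12% to 1.44% of counts in mitochondrially encoded genes. Levels are given as CPM, a gene's share of its library's counts on a library size scaled by TMM. Of the markers of the tumour cell label, Vim, which encodes vimentin, was at 3127 to 3963 CPM in GFP and 3306 to 3689 CPM in control libraries. Krt8 and Krt18 were present in all 7 but called lower in GFP cells (log2 fold changes -0.86 and -1.51), as were Zeb1, Prrx1 and Sparc. Cdh1, which encodes E-cadherin, was at 28.4 to 37.7 CPM in GFP and 16.4 to 30 CPM in control libraries. It was at 12.3 to 14.1 CPM in mCherry libraries of the attacked tumours. Epcam stayed between 0.564 and 2.61 CPM and Snai2, a transcription factor of mesenchymal cells, between 0 and 0.475 CPM. T cell genes were close to absent: over each group's libraries together Cd3e had 8 counts in GFP and 26 in control cells, Cd8a had 2 and 4, and Ifng had 0 in both. Macrophage markers, in contrast, differed. Of 20 tested, 13 were called lower in GFP cells, beside 6.97% of all genes tested, and none higher. The summed level of the list was 66.9 to 87.7 CPM in GFP libraries, 104.5 to 133.8 in mCherry libraries of the same tumours and 104.4 to 253.9 in controls. Cd14 alone gave 35.8 to 51.3, 68.7 to 84.5 and 34.4 to 67.5 CPM of these sums and was not called. The median member stood, as a log2 ratio to the control mean, at -1.56, -1.30 and -1.59 in GFP libraries 1 to 3. In the mCherry libraries it stood at -0.88, -0.80 and -1.11, and in controls 1 to 4 at -0.28, 0.61, 0.007 and -0.76. Ptprc, which encodes CD45, was at 0.586, 0.564 and 0.657 CPM against 1.84, 3.5, 2.01 and 1.54 CPM (log2 fold change -1.88 ± 0.35 (SE), adjusted p = 0.0163). Ptprc was not called without GFP library 1 (adjusted p = 0.0660) or GFP library 2 (0.0598). The number of macrophage markers called was 6, 9 and 7 without GFP libraries 1 to 3 and 12, 12, 11 and 15 without controls 1 to 4. Fewer cells of a type and less RNA per cell cannot be told apart in bulk libraries.

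Expression of 1933 of 14801 tested genes (13.1%) differed between surviving GFP cells and control cells at an adjusted p below 0.05 in edgeR's quasi-likelihood test. Of these, 902 rose (6.09% of the tested genes) and 1031 fell (6.97%), and 157 rises and 329 falls exceeded 2-fold. The shares of 6.09% and 6.97% are the reference for the list members called higher and lower below. For 4422 genes (29.9%) the 3 GFP libraries lay all above (14.6%) or all below (15.3%) the 4 controls. On the first principal component of the 10 libraries of run 2, which held 39.8% of the variance, the GFP libraries lay at -44.1, -42.6 and -40.6, the mCherry libraries of the same tumours at 25.9, -7.86 and 10.8, and the controls at 4.36, 49.1, 29.4 and 15.6. On this component the GFP cells thus formed a tight group beyond the range of the other 7 libraries, while the controls were spread over a wide range. On the second component (12.8% of the variance) they did not: GFP library 1 lay at 24.4, near control 2 at 26.1, and GFP libraries 2 and 3 at 1.82 and 3.89. The number of calls moved when single libraries were left out, in fits that hold fewer libraries. It was 287 without GFP library 1, 520 without GFP library 2, 914 without GFP library 3, 928 without control 2 and 807 without control 3. Across the 7 fits that each left out 1 library, 233 genes were called every time, 108 of them higher and 125 lower in GFP cells.

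**Figure D1:**
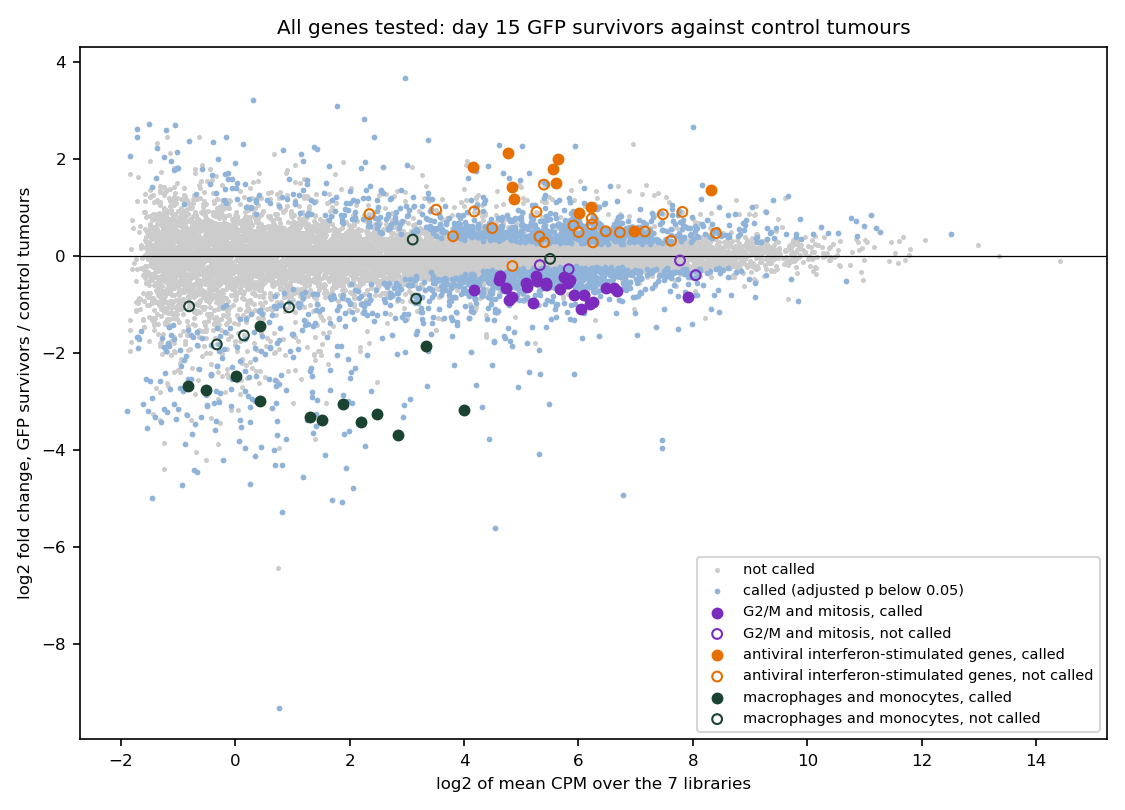
Fold change against level for all 14801 genes tested. The x axis is the log2 of the mean CPM over the 7 libraries and the y axis is the log2 fold change of GFP survivors over control tumours. Grey points were not called and blue points were called at an adjusted p below 0.05. Large points are members of 3 gene lists, filled where called. The purple mitosis genes all lie below 0, 32 of the 33 orange antiviral genes lie above 0, and 19 of the 20 dark green macrophage markers lie below 0.

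Genes of cell division fell together. Of 30 genes of G2/M and mitosis, 26 fell and none rose, and all 30 had a log2 fold change below 0, with a median of -0.65 against -0.002 over all genes tested. The share of members called lower, 26 of 30, stands beside 6.97% of all genes. Mki67 (ENSMUSG00000031004, chr7:135689784-135716361, minus strand, GRCm38), whose protein is the Ki-67 antigen stained in dividing cells, was at 130.4, 167 and 202 CPM in GFP libraries 1 to 3 and 275, 306, 305 and 311 CPM in controls 1 to 4 (log2 fold change -0.85 ± 0.14 (SE), adjusted p = 0.0118). Every GFP library lay below every control, and library 1 was lowest. Mki67 was called in each of the 7 fits that left out 1 library. Cenpa (ENSMUSG00000029177, chr5:30666777-30674830, plus strand), the centromeric histone H3 variant, was at 42.4, 46.1 and 54.2 CPM against 71.4, 85, 92.3 and 86 CPM (log2 fold change -0.81 ± 0.11 (SE), adjusted p = 0.00944). Its groups did not overlap either. Bub1b, a kinase of the spindle checkpoint, was at 33.1, 45.3 and 48 CPM against 67.1, 72.3, 77.4 and 80.3 CPM (log2 fold change -0.82 ± 0.13 (SE), adjusted p = 0.0114). Both were called in each of the 7 fits that left out 1 library, as were Ccnb2, Kif2c and Cenpf. Birc5, which encodes survivin and belongs to this list and to that of apoptosis, was at 13, 18 and 23.7 CPM against 32.3, 33.8, 36.1 and 35.3 CPM (log2 fold change -0.91 ± 0.17 (SE), adjusted p = 0.0173). Birc5 was not called without GFP library 2 (adjusted p = 0.0619). The other fallen members included Plk1, a mitotic kinase (-0.98), Cdc20, an activator of the anaphase-promoting complex (-0.97), Aurkb, a kinase of the chromosomal passenger complex (-0.66), and Foxm1, a transcription factor of mitotic genes (-0.44). The number of the 30 called was 7 without GFP library 2, 9 without GFP library 1, 15 without control 3 and 17 without control 2, and it was 21 to 27 without any of the others. In a limma-voom fit of the 10 libraries of run 2 with tumour as a random block, called the blocked fit from here on, 16 of the 30 were called, and Aurkb (adjusted p = 0.0594) and Foxm1 (0.0573) were not.

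Of 32 genes of DNA replication and S phase, 11 fell, beside 6.97% of all genes, and none rose. The median was -0.49, and 31 of 32 had a log2 fold change below 0. Tk1 (ENSMUSG00000025574, chr11:117815526-117826092, minus strand), the thymidine kinase of dividing cells, was at 18.8, 28.7 and 31.9 CPM in GFP libraries 1 to 3 and 44.3, 46.7, 47.2 and 46.8 CPM in controls 1 to 4 (log2 fold change -0.80 ± 0.16 (SE), adjusted p = 0.0185). Pole, the catalytic subunit of DNA polymerase epsilon, was at 20.1, 27.5 and 31.1 CPM against 40.4, 41.2, 41.5 and 44.7 CPM (log2 fold change -0.67 ± 0.14 (SE), adjusted p = 0.0198). For both genes the groups did not overlap and GFP library 1 was the lowest of the 7. Neither was called without GFP library 2 (adjusted p = 0.0524 for Tk1 and 0.0612 for Pole). Of the MCM helicase, Mcm2 (-0.57), Mcm3 (-0.68), Mcm4 (-0.50) and Mcm7 (-0.51) fell. The number of called members was 0 without GFP library 2, 3 without GFP library 1 or control 3, 6 without control 2, 7 without control 1 or 4, and 14 without GFP library 3. In the untargeted mCherry cells of the attacked tumours, the median against controls was 0.35 for mitosis and 0.37 for replication, with no gene called. Mki67, for one, was at 401, 296 and 463 CPM there. Within those tumours, 30 of 30 mitosis and 28 of 32 replication genes were called lower in GFP cells, beside 10.6% of all genes (medians -1.02 and -0.88, edgeR with tumour as a block). These 2 fits share libraries with the main comparison.

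Many genes of the cell cycle are timed through CHR, CCAAT or E2F motifs near their start. A start region from each of the 2 lists is printed with its motifs in capitals, and the share of each list that holds them follows. The sequences come from RefSeq (GRCm38.p6) and run 5′ to 3′ on the strand of the gene over the 250 bases before the start. Ccnb2, which encodes cyclin B2, an activator of the mitotic kinase CDK1, fell by 1.11 on the log2 scale (28.9, 41.9 and 47.8 CPM against 68.3, 87.2, 90.2 and 96.4 CPM). Its region, chr9:70421555-70421804 on the minus strand, holds 1 CHR motif (TTTGAA, first in the line) and 3 CCAAT motifs. Mcm7 was at 69, 72.2 and 91.2 CPM against 104, 111, 116 and 112 CPM, and its region, chr5:138171884-138172133 on the minus strand, holds 1 E2F motif on the opposite strand.
Ccnb2: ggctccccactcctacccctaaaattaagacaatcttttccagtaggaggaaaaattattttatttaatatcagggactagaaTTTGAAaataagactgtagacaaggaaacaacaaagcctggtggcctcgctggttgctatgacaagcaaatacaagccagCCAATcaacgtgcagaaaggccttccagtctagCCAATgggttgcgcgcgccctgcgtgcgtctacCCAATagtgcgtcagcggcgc
Mcm7: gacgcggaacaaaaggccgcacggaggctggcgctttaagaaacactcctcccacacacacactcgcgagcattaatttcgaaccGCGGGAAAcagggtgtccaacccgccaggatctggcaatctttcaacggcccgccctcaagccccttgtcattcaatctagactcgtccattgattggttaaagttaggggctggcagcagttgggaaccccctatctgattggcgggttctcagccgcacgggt
Motifs were sought on both strands from 250 bases before to 50 after the start. Of 25 start regions found for the mitosis list, 19 (76%) hold TTTGAA and 21 (84%) hold CCAAT, beside 17.9% and 37.4% of all 32851 start regions in the table. Of 27 start regions found for the replication list, 10 (37%) hold TTTGGCGC or TTTCCCGC, the E2F motifs, beside 1.56% of all. A match describes the letters and is not a measured binding site.

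Cell cycle inhibitors and genes linked to dormancy did not move as a group. Of 23 tested, 1 rose and none fell (median 0.10). The riser was Rbl2, which encodes p130, the pocket protein of the DREAM complex, at 33.5, 29.9 and 36.5 CPM in GFP libraries 1 to 3 and 25.1, 26.9, 25.6 and 27.4 CPM in controls 1 to 4 (log2 fold change 0.34 ± 0.09 (SE), adjusted p = 0.0381). Its 3 GFP libraries lay above the 4 controls, but the change was small. Rbl2 was not called without GFP library 1 (adjusted p = 0.0995), GFP library 2 (0.05001), GFP library 3 (0.106), control 1 (0.0741), control 2 (0.0736) or control 3 (0.0821). Cdkn1b, which encodes the inhibitor p27, was at 264, 208 and 212 CPM against 189.5, 193, 202 and 173 CPM (log2 fold change 0.27 ± 0.10 (SE), adjusted p = 0.105) and was not called. Nr2f1, a nuclear receptor known from dormant tumour cells, was at 378, 399 and 415 CPM against 362, 319, 453 and 273 CPM (adjusted p = 0.461), with overlapping groups. Klf4, a transcription factor that restrains division in epithelia, was at 1395, 1271 and 1240 CPM against 1206, 883, 953 and 897 CPM (adjusted p = 0.0574). Among 17 targets of p53, 2 rose and 1 fell, with 0, 1 and 2 without GFP libraries 1 to 3 and 3, 3, 3 and 5 without controls 1 to 4 called. Rrm2b, a ribonucleotide reductase subunit used for DNA repair outside S phase, was at 30.3, 27.2 and 29.1 CPM against 20.1, 17.3, 16.8 and 22.4 CPM (log2 fold change 0.59 ± 0.11 (SE), adjusted p = 0.0179), and Rrm2b was not called without GFP library 1 (adjusted p = 0.0678). Ccng1, which encodes cyclin G1, was at 42.6, 44.5 and 43.8 CPM against 30.5, 26.9, 22.8 and 33.9 CPM (log2 fold change 0.62 ± 0.13 (SE), adjusted p = 0.0204). Ccng1 was not called without GFP library 1 (adjusted p = 0.0675), GFP library 2 (0.0664) or GFP library 3 (0.0537).

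**Figure D2:**
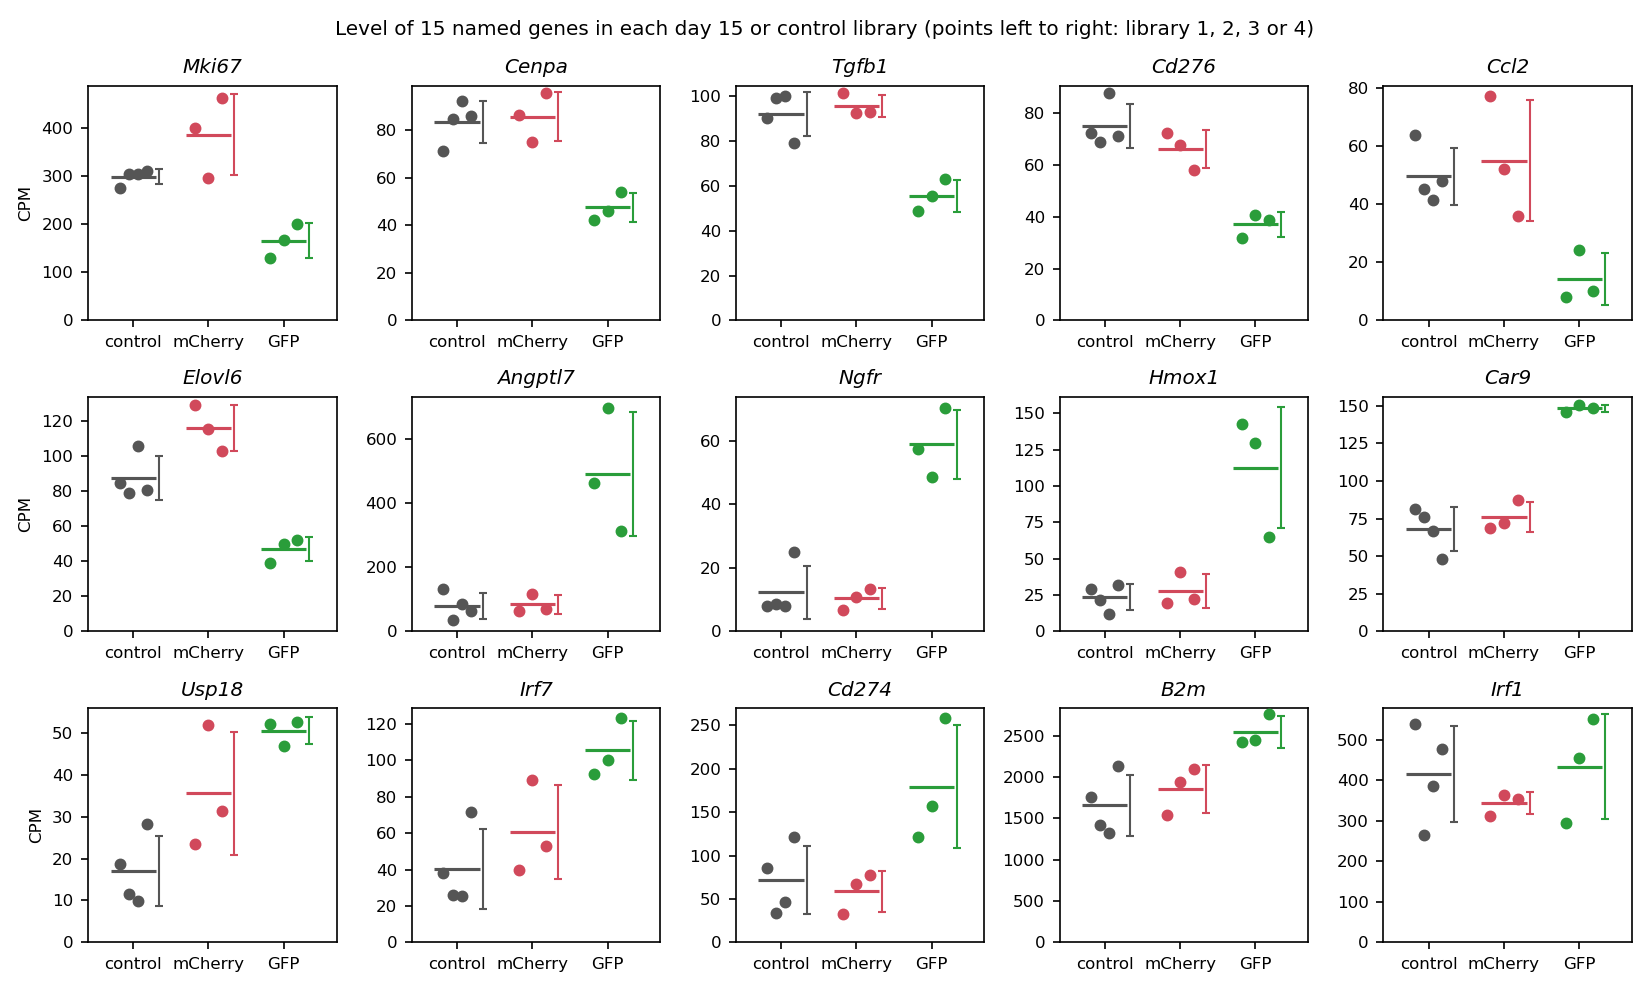
Level of 15 named genes in each library, in CPM from 0. Grey points are the 4 control tumours, red points the mCherry cells and green points the GFP cells of the same 3 attacked tumours, with the mean as a line and the SD as a bar beside it. Points run from library 1 on the left. GFP cells lie below all controls for the top row and Elovl6, above all controls for Angptl7, Ngfr, Hmox1, Car9, Usp18, Irf7, Cd274 and B2m, and overlap them for Irf1.

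Antiviral interferon-stimulated genes rose in part in the survivors. Of 33 tested, 11 rose and none fell, beside 6.09% of all genes that rose, and the median log2 fold change was 0.85, with 32 of 33 above 0. For 19 of them all GFP libraries lay above all controls, as they did for 14.6% of all genes. In the blocked fit 19 of the 33 were called higher. Trim25 (ENSMUSG00000000275, chr11:88999376-89020293, plus strand), a ubiquitin ligase of the RIG-I pathway, was at 165, 141 and 146 CPM in GFP libraries 1 to 3 and 110.5, 97.8, 100.0 and 118 CPM in controls 1 to 4 (log2 fold change 0.50 ± 0.09 (SE), adjusted p = 0.0158). Trim25 was not called without GFP library 1 (adjusted p = 0.0599). Ddx60 (ENSMUSG00000037921, chr8:61928087-62038244, plus strand), a helicase linked to RNA sensing, was at 80.8, 82.3 and 98.5 CPM against 50.3, 38.2, 36.9 and 65.5 CPM (log2 fold change 0.87 ± 0.19 (SE), adjusted p = 0.0243). GFP library 3 was highest and control 4 was the nearest control. Ddx60 was not called without GFP library 1 (adjusted p = 0.0720), GFP library 2 (0.0646), GFP library 3 (0.0704) or control 3 (0.0534). The largest rises of the list were Oas2, an activator of RNase L (42.4, 58.9 and 44.3 CPM against 12.9, 5.08, 3.85 and 23.5 CPM, log2 fold change 2.11), and Ifi44 (82.8, 81.5 and 95.3 CPM against 25, 11.3, 7.54 and 44.4 CPM, 1.98), both chosen after their values were seen. Ifit1 (1.5), Ifit3 (1.79) and Ifit3b (1.83), which bind foreign RNA or support that binding, rose as well, and the near-identical copies of this family may share reads. Bst2, which encodes tetherin, was at 401, 504 and 564 CPM against 212, 113, 134 and 309.7 CPM (1.35).

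These interferon calls changed when single libraries were left out, in fits that hold fewer libraries. The number of called antiviral genes was 0 without GFP library 1, 1 without GFP library 2, GFP library 3 or control 3, 3 without control 1, 4 without control 2 and 31 without control 4. The 4 controls were themselves far apart. The median member stood, as a log2 ratio to the control mean, at 0.05 in control 1, -0.51 in control 2, -0.41 in control 3 and 0.60 in control 4. Against the same mean it stood at 0.71, 0.61 and 0.84 in GFP libraries 1 to 3 and at 0.02, 0.62 and 0.34 in the mCherry libraries of tumours 1 to 3. Control 4 and the mCherry cells of tumour 2 thus reached the level of the second GFP library. Of the upstream regulators of interferon signalling, 3 of 20 rose and 1 fell, with 0, 0 and 1 without GFP libraries 1 to 3 and 1, 1, 1 and 5 without controls 1 to 4 called. Usp18 (ENSMUSG00000030107, chr6:121245906-121270917, plus strand), a brake on the type I interferon receptor, was at 52.1, 46.9 and 52.5 CPM in GFP libraries 1 to 3 and 18.8, 11.6, 9.92 and 28.2 CPM in controls 1 to 4 (log2 fold change 1.57 ± 0.31 (SE), adjusted p = 0.0186). Usp18 was not called without GFP library 1 (adjusted p = 0.0701) or GFP library 2 (0.0526). Irf7 (ENSMUSG00000025498, chr7:141262706-141266481, minus strand), a transcription factor that amplifies type I interferon, was at 92.6, 100.3 and 124 CPM against 38.4, 25.9, 25.3 and 71.7 CPM (log2 fold change 1.39 ± 0.33 (SE), adjusted p = 0.0311). Irf7 was not called without GFP library 1 (adjusted p = 0.0827), GFP library 2 (0.0784), GFP library 3 (0.0832), control 1 (0.0545), control 2 (0.0585) or control 3 (0.0698). Irf9, a transcription factor of the interferon response, rose by 0.72 and Ifnar1, a chain of the type I interferon receptor, fell by 0.31 on the log2 scale. Irf1, a transcription factor that interferon-gamma induces, was at 294, 456 and 550.5 CPM against 538, 265, 386 and 476 CPM (adjusted p = 0.899) and did not pass the test, with overlapping groups. Irf8, a further factor of the family, likewise overlapped (19.6, 38.2 and 50.8 CPM against 32.7, 34.2, 27.3 and 47.1 CPM, adjusted p = 0.938).

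None of the 16 interferon-induced GTPases passed the test, although all 16 had a log2 fold change above 0 (0.68 to 2.45, median 0.97). The controls spread widely here: the median member stood at 0.13, -1.28, -0.83 and 0.94 in controls 1 to 4 and at 0.32, 0.90 and 1.46 in GFP libraries 1 to 3, as log2 ratios to the control mean. Gbp8, a guanylate-binding protein, was at 27, 49.2 and 70.2 CPM in GFP libraries 1 to 3 and 23.2, 5.29, 8.35 and 35.2 CPM in controls 1 to 4 (log2 fold change 1.45 ± 0.58 (SE), adjusted p = 0.124). Gvin1, a very large interferon-inducible GTPase with close copies in the genome, was low, at 0.733, 1.26 and 1.64 CPM against 0.507, 0.0297, 0 and 0.356 CPM (adjusted p = 0.0742). In the blocked fit Gbp8 (adjusted p = 0.0385) and Gvin1 (0.0210) passed. Without control 4, 10 of the 16 were called, and without control 1 it was 1 and without any other library none. Within the attacked tumours, 15 of 16 were called higher in GFP than in mCherry cells, beside 8.94% of all genes, with a median of 1.17. The mCherry cells had a median of -0.18 against the controls.

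The promoter of Ddx60 shows the interferon-stimulated response element, for which GAAA, any 2 bases and GAAA again was sought on both strands. Its region, chr8:61927837-61928086 on the plus strand of GRCm38.p6 in RefSeq, holds 2 copies close to the start, given in capitals.
Ddx60: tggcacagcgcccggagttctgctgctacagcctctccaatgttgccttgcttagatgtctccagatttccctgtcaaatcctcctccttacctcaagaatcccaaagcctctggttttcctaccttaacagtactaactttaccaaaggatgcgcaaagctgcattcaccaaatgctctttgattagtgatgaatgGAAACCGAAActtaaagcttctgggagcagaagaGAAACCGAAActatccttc
Of the start regions found for each list, this pattern lies in 15 of 26 (57.7%) of the antiviral genes, 9 of 10 (90%) of the GTPases, 5 of 21 (23.8%) of the MHC class I genes and 3 of 20 (15%) of the regulators, beside 3.44% of all start regions. The interferon-gamma activated sequence GAS, TTCNNNGAA, lies in 6 of 26 (23.1%), 6 of 10 (60%), 2 of 21 (9.52%) and 6 of 20 (30%), beside 8.30% of all. Of the 77 start regions of these lists, 10 hold both motifs and in 1 the matches overlap. In a window that began 200 bases before the start, the first pattern lay in 57.7%, 90%, 23.8% and 5%, beside 2.74% of all. GAS lay there in 15.4%, 60%, 4.76% and 20%, beside 6.79% of all, with the lists in the same order.

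Of 22 genes of MHC class I presentation, 2 rose and none fell, a share close to the 6.09% of all genes that rose. The number called was 0, 0 and 0 without GFP libraries 1 to 3 and 1, 0, 0 and 4 without controls 1 to 4. B2m (ENSMUSG00000060802, chr2:122147686-122153083, plus strand), the light chain of MHC class I, was at 2417, 2443 and 2760 CPM in GFP libraries 1 to 3 and 1760, 1421, 1317 and 2131 CPM in controls 1 to 4 (log2 fold change 0.62 ± 0.16 (SE), adjusted p = 0.0401). The GFP libraries lay above all controls, with control 4 nearest. B2m was not called without GFP library 1 (adjusted p = 0.0945), GFP library 2 (0.0898), GFP library 3 (0.102), control 1 (0.0582), control 2 (0.0869) or control 3 (0.0818). H2-T22, a non-classical class I gene whose reads may be shared with close relatives, was at 238, 262 and 279 CPM against 180.2, 121, 129 and 205 CPM (log2 fold change 0.71 ± 0.18 (SE), adjusted p = 0.0354), and H2-T22 was not called without GFP library 1 (adjusted p = 0.0851), GFP library 2 (0.0929), GFP library 3 (0.0912), control 2 (0.0605) or control 3 (0.0809). Nlrc5, the transactivator of the class I genes, was at 192, 251 and 282 CPM against 159, 133, 143 and 232 CPM (adjusted p = 0.101), where control 4 lay inside the GFP range. The list median was 0.23, and 21 of 22 members were above 0. None of 9 MHC class II genes passed, with a median of 1.21. H2-Aa, a class II chain, was at 60.9, 139 and 283 CPM against 137, 11.1, 20.9 and 69.2 CPM (adjusted p = 0.237), with overlapping groups. Ctss, a protease that trims the class II invariant chain and a macrophage marker, was at 4.40, 6.94 and 6.70 CPM against 10.1, 17, 10.2 and 7.33 CPM (log2 fold change -0.89 ± 0.28 (SE), adjusted p = 0.0679).

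Checkpoint ligands went both ways, with 3 of 12 higher and 2 lower, and 1 to 4 members called when any 1 library was left out. Cd274 (ENSMUSG00000016496, chr19:29367455-29388095, plus strand), which encodes PD-L1, was at 122, 158 and 259 CPM in GFP libraries 1 to 3 and 85.6, 34, 46.4 and 121 CPM in controls 1 to 4. All 3 GFP libraries lay above the 4 controls, GFP library 1 only just above control 4, and the difference missed the threshold (log2 fold change 1.32 ± 0.42 (SE), adjusted p = 0.0656), which it passed in the blocked fit (adjusted p = 0.0395). With 1 library left out, Cd274 was called only without control 4 (adjusted p = 0.0252) and not without any other library (0.0850 to 0.189). Against the mCherry cells of the same tumours, at 32.7, 67 and 77.7 CPM, it was called (log2 fold change 1.61, adjusted p = 4.09e-05). Cd276 (ENSMUSG00000035914, chr9:58524298-58555437, minus strand), which encodes B7-H3, a B7 family member with mostly inhibitory effects on T cells, was lower, at 31.7, 40.8 and 38.8 CPM in GFP libraries 1 to 3 and 72.4, 68.8, 87.6 and 71.1 CPM in controls 1 to 4 (log2 fold change -1.01 ± 0.12 (SE), adjusted p = 0.00580). It was lower in every GFP library than in any control, and Cd276 was called in each of the 7 fits that left out 1 library. Cd24a, a ligand of the phagocyte receptor Siglec-G, rose (40.4, 33 and 52.2 CPM against 17.2, 29.6, 22.2 and 28.1 CPM, 0.79), as did Lgals3, which encodes galectin-3 (0.52), and Vsir, which encodes VISTA (0.25). With 1 library left out, Vsir was not called in any of the 7 fits (adjusted p up to 0.123). Lgals3 was called only without control 2 (adjusted p = 0.0438), and Cd24a only without control 2 (0.0437) or control 4 (0.0384). Fgl2, which T cells and macrophages also make, was close to the limit of detection, at 0.342, 0.260 and 0.452 CPM against 2.38, 2.61, 1.98 and 0.951 CPM (log2 fold change -2.48 ± 0.42 (SE), adjusted p = 0.0139). Fgl2 was not called without GFP library 1 (adjusted p = 0.0593) or GFP library 2 (0.0515). Its fall went with that of the macrophage markers, whose part in the result was not tested.

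Of 18 suppressive enzymes and cytokines, 2 rose and 2 fell, and 2 to 4 were called when any 1 library was left out. Hmox1 (ENSMUSG00000005413, chr8:75093621-75100589, plus strand), the haem oxygenase that yields carbon monoxide, iron and biliverdin, was among the largest rises, at 142, 129.8 and 65 CPM in GFP libraries 1 to 3 and 29.2, 21.5, 12 and 31.9 CPM in controls 1 to 4 (log2 fold change 2.25 ± 0.35 (SE), adjusted p = 0.0106). The lowest GFP library was still above the highest control, and Hmox1 was called in each of the 7 fits that left out 1 library. Ptgs2, which encodes cyclooxygenase 2 of prostaglandin E2 synthesis, rose by 1.22 on the log2 scale (1316, 1069 and 1227 CPM against 709.6, 394, 413 and 550.3 CPM, chosen after its values were seen). Tgfb1 (ENSMUSG00000002603, chr7:25687002-25705077, plus strand), the main TGF-beta of tumours, was lower, at 48.6, 55.5 and 62.9 CPM against 90.1, 99.1, 100.2 and 79.2 CPM (log2 fold change -0.73 ± 0.11 (SE), adjusted p = 0.0109). Tgfb1 was called in each of the 7 fits that left out 1 library. Entpd1, which encodes the ectonucleotidase CD39 and is made by many leukocytes and endothelial cells, fell (-3.14). Of 31 genes of death receptors and apoptosis, 2 rose and 2 fell, a share close to that of all genes, with 1, 0 and 1 without GFP libraries 1 to 3 and 2, 1, 2 and 4 without controls 1 to 4 called. Ripk1, a kinase downstream of death receptors, was at 37.4, 42.7 and 42.2 CPM against 32.7, 28.9, 30.1 and 35.2 CPM (log2 fold change 0.36 ± 0.09 (SE), adjusted p = 0.0384), and Ripk1 was not called without GFP library 1 (adjusted p = 0.0668), GFP library 2 (0.115), GFP library 3 (0.0993), control 1 (0.0582), control 2 (0.0875) or control 3 (0.0866). Fas, the receptor of Fas ligand, was at 15.5, 18.1 and 11.7 CPM against 24.9, 12.2, 10.02 and 20.4 CPM (adjusted p = 0.758, chosen after its values were seen).

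Chemokines and cytokines changed in both directions. Of 29 tested, 7 fell (6.97% of all genes did), 3 rose and 19 did not pass, with a median of -1.14 and 23 of 29 below 0. Ccl2 (ENSMUSG00000035385, chr11:82035571-82037453, plus strand), which draws monocytes, was at 8.21, 24.4 and 10.2 CPM in GFP libraries 1 to 3 and 63.9, 45.1, 41.5 and 48.2 CPM in controls 1 to 4 (log2 fold change -1.80 ± 0.35 (SE), adjusted p = 0.0180). GFP library 2 was the highest of its group and still below all controls, and Ccl2 was not called without GFP library 1 (adjusted p = 0.0639) or GFP library 3 (0.0541). Ccl9 was at 1.12, 0.824 and 0.534 CPM against 2.35, 4.25, 2.04 and 3.88 CPM (log2 fold change -1.92 ± 0.37 (SE), adjusted p = 0.0180). Ccl9 was not called without GFP library 1 (adjusted p = 0.0511), GFP library 2 (0.0620) or GFP library 3 (0.0510). Ccl7, a further monocyte attractant (-2.02), Cxcl2, which draws neutrophils (-2.25), Lif, a cytokine of the IL-6 family (-0.89), Ccl8 (-2.84) and Cxcl14 (-3.00) fell. Cxcl2 (adjusted p = 0.119), Lif (0.0710) and Cxcl14 (0.247) were not called in the blocked fit. Il15, which sustains T and NK cells, rose (8.55, 8.28 and 9.90 CPM against 5.17, 2.29, 1.78 and 4.99 CPM, 1.33), as did Il34, a ligand of the macrophage receptor CSF1R (0.61), and Tslp (0.61). Csf3, which encodes G-CSF, was at 9.09, 13.9 and 5.84 CPM against 45.2, 40.3, 10.7 and 21.3 CPM (adjusted p = 0.0588) and was not called. The CXCR3 ligands that draw T cells were not called either: Cxcl9 was at 0.928, 2.34 and 3.70 CPM against 6.09, 6.00, 2.81 and 5.82 CPM (adjusted p = 0.104) and Cxcl10 at 15.6, 19.8 and 21.2 CPM against 34.5, 12.7, 19.4 and 17.9 CPM (adjusted p = 0.740). Of 19 NF-kB subunits and targets, 3 fell, beside 6.97% of all genes, and none rose. Among the 3 were Nfkbie, an inhibitor of NF-kB (27, 32.4 and 32.8 CPM against 44.1, 42, 39.7 and 44.2 CPM, adjusted p = 0.0185), and Traf1, an adaptor of TNF receptors (21.1, 19.8 and 25.8 CPM against 27.4, 43.1, 35.4 and 33.7 CPM, adjusted p = 0.0319). Nfkbie was not called without GFP library 1 (adjusted p = 0.0599) or GFP library 2 (0.0523). Traf1 was not called without GFP library 1 (adjusted p = 0.111), GFP library 2 (0.105), control 2 (0.0557) or control 3 (0.0705). Calls in the NF-kB list numbered 0, 0 and 2 without GFP libraries 1 to 3 and 2, 1, 2 and 4 without controls 1 to 4. Macrophages make several of these chemokines, and their markers were lower in the same libraries. The part of host cells in these falls was not tested. The number of chemokines and cytokines called was 1 without GFP library 1, 2 without GFP library 3, 4 without GFP library 2, control 2 or control 3, 8 without control 1 and 12 without control 4.

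Of 25 hypoxia and HIF targets, 3 rose and 1 fell, with a median of 0.26, a share near the 13.1% of all genes called. The number called was 1 to 4 when any 1 library was left out, lowest without GFP library 1. Car9 (ENSMUSG00000028463, chr4:43506966-43513729, plus strand), the carbonic anhydrase induced by hypoxia, was at 146, 151 and 148 CPM in GFP libraries 1 to 3 and 81.3, 75.8, 67.1 and 48.2 CPM in controls 1 to 4 (log2 fold change 1.12 ± 0.15 (SE), adjusted p = 0.00944). The GFP libraries lay close together and above all controls, and Car9 was called in each of the 7 fits that left out 1 library. P4ha1, a collagen prolyl hydroxylase subunit, was at 659.8, 566 and 494 CPM against 407, 296, 284 and 283 CPM (log2 fold change 0.85 ± 0.15 (SE), adjusted p = 0.0151), and P4ha1 was not called without GFP library 1 (adjusted p = 0.0616). Bnip3, a mitophagy receptor, rose (0.88) and Car12, another carbonic anhydrase, fell (-0.71), although not in the blocked fit (adjusted p = 0.0539). Hif1a, the oxygen-sensitive subunit of HIF-1, was at 221, 226 and 212 CPM against 199, 224, 174 and 214 CPM (adjusted p = 0.422), with overlapping groups. Of 21 glycolysis genes, 3 rose and 1 fell, with 0, 0 and 2 without GFP libraries 1 to 3 and 7, 2, 1 and 3 without controls 1 to 4 called. Hk1, a hexokinase, was at 172, 176 and 174 CPM against 142, 143, 134 and 141 CPM (log2 fold change 0.32 ± 0.06 (SE), adjusted p = 0.0191), and Aldoa, an aldolase, at 1979, 1752 and 1582 CPM against 1347, 1366, 1268 and 1145 CPM (log2 fold change 0.47 ± 0.10 (SE), adjusted p = 0.0254). Hk1 was not called without GFP library 1 (adjusted p = 0.0576), GFP library 2 (0.0663) or GFP library 3 (0.0504). Aldoa was not called without GFP library 1 (adjusted p = 0.0824), GFP library 2 (0.0746) or control 3 (0.0628). Of 27 genes of oxidative phosphorylation, 9 fell, beside 6.97% of all genes, and none rose, by small amounts (list median -0.23). Atp5c1, a subunit of ATP synthase, was at 133, 141 and 142 CPM against 162, 174, 175 and 172 CPM (log2 fold change -0.30 ± 0.07 (SE), adjusted p = 0.0265), and Cyc1, cytochrome c1 of complex III, at 43.9, 55.5 and 48.9 CPM against 63.2, 66, 67 and 59.2 CPM (log2 fold change -0.37 ± 0.09 (SE), adjusted p = 0.0351). The number of called members was 0 without GFP library 1, GFP library 3, control 2 or control 3, 1 without GFP library 2 and 6 without control 1 or control 4.

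Sterol and fatty acid synthesis fell in 6 of 28 genes, beside 6.97% of all genes, and rose in none, with 27 of 28 below 0 and a median of -0.41. Elovl6 (ENSMUSG00000041220, chr3:129532355-129638495, plus strand), a fatty acid elongase, was at 39.1, 49.6 and 52.3 CPM in GFP libraries 1 to 3 and 84.6, 79, 106 and 80.3 CPM in controls 1 to 4 (log2 fold change -0.89 ± 0.13 (SE), adjusted p = 0.0100). GFP library 3 was the highest of its group and lay below control 2, the lowest control, and Elovl6 was called in each of the 7 fits that left out 1 library. Sqle, the squalene epoxidase of cholesterol synthesis, was at 82.6, 96.4 and 77 CPM against 178, 159.5, 159 and 117 CPM (log2 fold change -0.85 ± 0.14 (SE), adjusted p = 0.0138), and Sqle was not called without GFP library 1 (adjusted p = 0.0609). Control 4 was the lowest control for Sqle. The number of the 28 called was 1, 2 and 3 without GFP libraries 1 to 3 and 6, 4, 4 and 17 without controls 1 to 4. In the mCherry cells of the attacked tumours the list lay on the other side of the controls (median 0.43), with no gene called. Within those tumours 25 of 28 were called lower in GFP cells (median -0.85), beside 10.6% of all genes.

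Heat shock genes rose in part. Of 21 tested, 8 rose and none fell, beside 6.09% of all genes that rose, with a median of 0.37. Hspb7 (ENSMUSG00000006221, chr4:141420779-141425311, plus strand), a small heat shock protein known from muscle, was at 5.28, 7.11 and 8.43 CPM in GFP libraries 1 to 3 and 1.01, 0.594, 0.570 and 1.11 CPM in controls 1 to 4 (log2 fold change 3.08 ± 0.29 (SE), adjusted p = 0.00376). Hspb7 was called in each of the 7 fits that left out 1 library. Hsp90aa1, the inducible form of HSP90, was at 1382, 1256 and 1028 CPM against 849.5, 698, 661 and 705 CPM (log2 fold change 0.75 ± 0.12 (SE), adjusted p = 0.0132). Hsp90aa1 was not called without GFP library 1 (adjusted p = 0.0513). Dnajb1, a partner of HSP70, rose (0.84), as did Hspa8, the constitutive HSP70 (0.46), and Cryab, which encodes a crystallin chaperone (0.67). The number called was 1 without GFP library 1, 2 without GFP library 2 and 4 to 9 without any other library. Immediate early genes, which respond to tissue digestion, rose in 1 of 17 (Fosl1, 0.50), with a median of 0.25. Within the attacked tumours, 10 of the 17 were called higher and 1 lower in GFP than in mCherry cells (median 0.36), beside 8.94% and 10.6% of all genes. The part of tissue handling in the results was not tested. Of 25 genes of the unfolded protein and integrated stress response, 5 rose and 1 fell, with 0, 0 and 1 without GFP libraries 1 to 3 and 4, 1, 2 and 5 without controls 1 to 4 called. Dnajb9, a chaperone of the endoplasmic reticulum, was at 45.1, 35.9 and 33.5 CPM against 26, 23.9, 16.5 and 24.8 CPM (log2 fold change 0.74 ± 0.16 (SE), adjusted p = 0.0253), and Ddit3, which encodes the stress factor CHOP, at 51.4, 52.1 and 54 CPM against 44.9, 35, 32.2 and 26.8 CPM (log2 fold change 0.59 ± 0.15 (SE), adjusted p = 0.0367). Dnajb9 was not called without GFP library 1 (adjusted p = 0.0902) or GFP library 2 (0.0654). Ddit3 was not called without GFP library 1 (adjusted p = 0.101), GFP library 2 (0.0942), GFP library 3 (0.0900), control 2 (0.0706) or control 3 (0.0865).

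Of 23 NRF2 targets and iron genes, 6 rose and 2 fell. The number called was 3, 4 and 6 without GFP libraries 1 to 3 and 7, 5, 5 and 12 without controls 1 to 4. Ftl1 (ENSMUSG00000050708, chr7:45457944-45459884, minus strand), the light chain of ferritin, was at 2374, 2463 and 2004 CPM in GFP libraries 1 to 3 and 1317, 1279, 1226 and 1537 CPM in controls 1 to 4 (log2 fold change 0.77 ± 0.11 (SE), adjusted p = 0.00975). It has processed copies in the genome that may share its reads. Fth1, the heavy chain, was at 3222, 3136 and 2512 CPM against 1810, 1581, 1382 and 1834 CPM (log2 fold change 0.84). For both chains the groups did not overlap, and both were called in each of the 7 fits that left out 1 library. Gclm, the regulatory subunit of glutathione synthesis, was at 54.4, 59.1 and 47.4 CPM against 25.1, 21.9, 19.4 and 37.5 CPM (1.05). Slc7a11, the cystine importer that feeds the same synthesis, fell, at 26.3, 34.9 and 26.8 CPM against 52.6, 81.8, 56.1 and 59.9 CPM (-1.09), and the gene of NRF2 itself, Nfe2l2, fell slightly (-0.29). The list thus held changes in both directions. The region before the start of Gclm, chr3:122245307-122245556 on the plus strand, holds 1 match to the antioxidant response element core TGACNNNGC, on the opposite strand and in capitals.
Gclm: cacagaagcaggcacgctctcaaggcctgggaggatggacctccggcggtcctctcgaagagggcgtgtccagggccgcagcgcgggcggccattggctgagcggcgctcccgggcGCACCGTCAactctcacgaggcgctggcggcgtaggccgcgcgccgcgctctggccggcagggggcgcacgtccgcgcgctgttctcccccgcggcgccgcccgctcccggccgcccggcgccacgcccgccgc
The core lies in 7 of 27 (25.9%) of the start regions found for the list and in 12.4% of all. In a window that began 200 bases before the start, these shares were 22.2% and 10.9%.

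**Figure D3:**
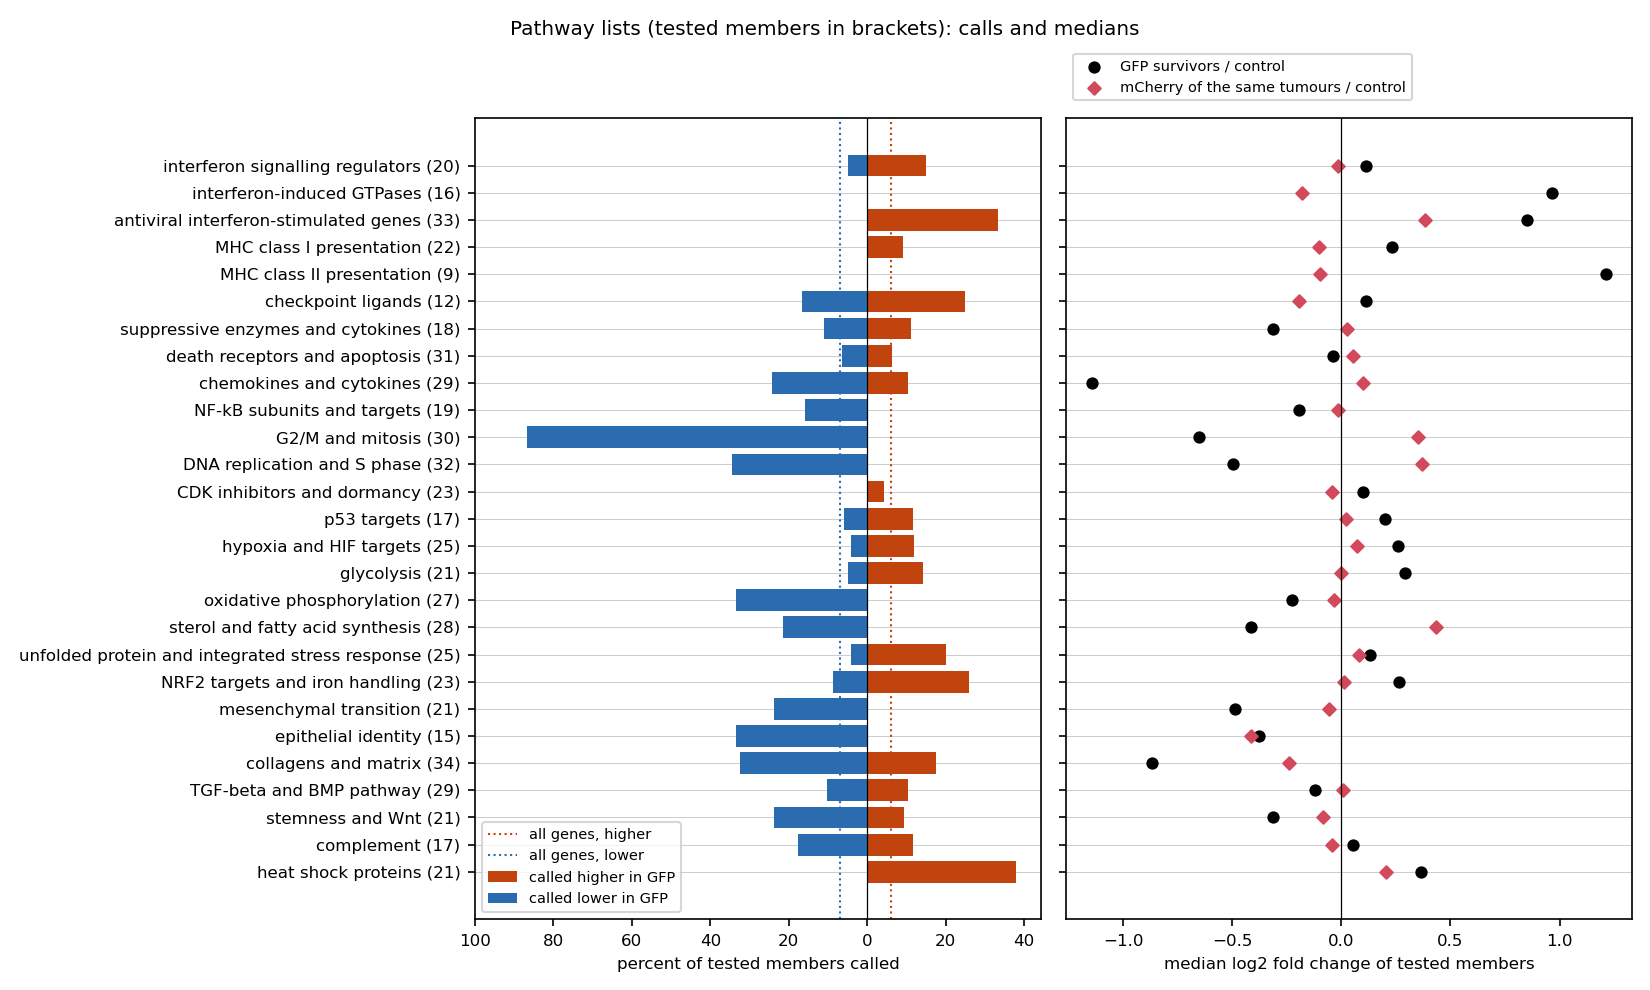
Calls and medians of the 27 pathway lists. Bars on the left give the percent of tested members called higher (red) or lower (blue) in GFP survivors than in controls, with dotted lines at 6.09% and 6.97%, the shares over all genes tested. Points on the right give the median log2 fold change over controls of GFP survivors (black) and of mCherry cells of the same tumours (red diamonds). The mitosis list has the longest bar, and the lists whose 2 medians lie on opposite sides of 0 include mitosis, replication and sterol synthesis.

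Collagen genes were among the largest falls. Of 34 collagens and matrix genes, 11 fell and 6 rose, beside 6.97% and 6.09% of all genes, with a median of -0.87. Col1a2 (ENSMUSG00000029661, chr6:4504814-4541544, plus strand), a chain of collagen I, was at 11.5, 1.82 and 5.26 CPM in GFP libraries 1 to 3 and 35.3, 484, 97.4 and 131 CPM in controls 1 to 4 (log2 fold change -4.93 ± 1.00 (SE), adjusted p = 0.0203). Control 2 was far above the other controls, and the groups did not overlap. Col1a2 was not called without GFP library 1 (adjusted p = 0.0633), GFP library 2 (0.0683) or GFP library 3 (0.0619). The mCherry cells of the same tumours were at 86.2, 1.01 and 121 CPM, so the second of these libraries was as low as the GFP cells. Col3a1, the chain of collagen III, was at 36.3, 8.84 and 11.5 CPM against 52.6, 685, 152 and 293 CPM (log2 fold change -3.98 ± 0.90 (SE), adjusted p = 0.0272), and Col3a1 was not called without GFP library 1 (adjusted p = 0.0633), GFP library 2 (0.0879) or GFP library 3 (0.0809). Col5a2 (-5.61), Col12a1 (-4.10), Col1a1 (-3.81) and Lum, which encodes lumican (-2.98), fell in the same way. Thy1 and Lrrc15, both known from fibroblasts, were at 0.391, 0.0867 and 0.288 CPM against 0.888, 17.4, 3.59 and 6.54 CPM and at 0.342, 0.173 and 0 CPM against 1.14, 14.8, 4.02 and 2.10 CPM (log2 fold changes -4.80 and -5.04). Thy1 was not called without GFP library 1 (adjusted p = 0.0885), GFP library 2 (0.0896) or GFP library 3 (0.0748). Lrrc15 was not called without GFP library 1 (adjusted p = 0.0862), GFP library 2 (0.0924), GFP library 3 (0.0804) or control 3 (0.0558). Meg3, a long noncoding RNA of an imprinted cluster, was at 0.488, 0.0433 and 0.0411 CPM against 0.666, 18.4, 2.01 and 3.84 CPM (log2 fold change -5.08 ± 1.39 (SE), adjusted p = 0.0451), and Fndc1, a fibronectin domain protein, at 0.488, 0.173 and 0.205 CPM against 0.698, 10.5, 2.75 and 6.02 CPM (log2 fold change -4.12 ± 0.95 (SE), adjusted p = 0.0279). Meg3 was not called without GFP library 1 (adjusted p = 0.0999), GFP library 2 (0.131), GFP library 3 (0.118), control 2 (0.0526) or control 3 (0.0624). Fndc1 was not called without GFP library 1 (adjusted p = 0.0831), GFP library 2 (0.0928) or GFP library 3 (0.0818). Moxd1, a monooxygenase-like protein, was at 0.146, 0.217 and 0.534 CPM against 7.52, 10.9, 4.83 and 2.50 CPM (log2 fold change -4.38 ± 0.63 (SE), adjusted p = 0.00975), and Moxd1 was called in each of the 7 fits that left out 1 library. Col1a2, Col3a1, Col5a2 and Col12a1 were highest in control 2, which was also highest in the summed markers of macrophages, endothelial cells (155.4 CPM) and pericytes (59.8 CPM). Calls among the 34 matrix genes numbered 4, 4 and 7 without GFP libraries 1 to 3 and 19, 12, 10 and 15 without controls 1 to 4. In the blocked fit 4 fell and 7 rose. Col1a2 (adjusted p = 0.137), Col3a1 (0.0858), Col5a2 (0.202), Col12a1 (0.2001), Lum (0.125), Thy1 (0.199), Lrrc15 (0.134), Meg3 (0.223) and Fndc1 (0.187) were not called in that fit.

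Part of the matrix moved the other way or fell without that pattern. Col6a2 (ENSMUSG00000020241, chr10:76595762-76623630, minus strand), a chain of the microfibrillar collagen VI, was at 64, 106 and 74.3 CPM in GFP libraries 1 to 3 and 214, 291, 199.9 and 198 CPM in controls 1 to 4 (log2 fold change -1.47 ± 0.20 (SE), adjusted p = 0.00940). Col5a1 was at 154, 244 and 183 CPM against 414, 431, 462 and 349.7 CPM (log2 fold change -1.10 ± 0.16 (SE), adjusted p = 0.00998). In both, each GFP library lay below each control, and the call stood in each of the 7 fits that left out 1 library. Dcn, which encodes decorin, rose, at 683, 761 and 749.6 CPM against 564, 194, 359 and 338 CPM (log2 fold change 1.01 ± 0.28 (SE), adjusted p = 0.0482), although it is counted among fibroblast markers. Dcn was not called without GFP library 1 (adjusted p = 0.117), GFP library 2 (0.120), GFP library 3 (0.105), control 3 (0.105) or control 4 (0.0756). Ogn, which encodes osteoglycin, was at 32.6, 67.3 and 33.9 CPM against 14.1, 3.83, 5.26 and 13.6 CPM (log2 fold change 2.28 ± 0.46 (SE), adjusted p = 0.0199), and Ogn was not called without GFP library 1 (adjusted p = 0.0575) or GFP library 2 (0.0690). Bglap2, an osteocalcin gene with a close copy next to it, was at 6.89, 8.37 and 12.9 CPM against 2.95, 0.624, 0.670 and 1.07 CPM (log2 fold change 2.82 ± 0.50 (SE), adjusted p = 0.0152). Thbs1, which encodes thrombospondin 1, rose by 1.01 and Col18a1, the source of endostatin, by 0.60 on the log2 scale.

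Host cell markers moved as follows. Of 13 fibroblast markers, 3 fell (Thy1, Lum and Pi16) and 2 rose (Dcn and Pdgfra), with a median of -0.63 and with 0, 1 and 1 without GFP libraries 1 to 3 and 5, 3, 3 and 3 without controls 1 to 4 called. Pdgfra, a growth factor receptor, was at 610.5, 659.7 and 680.5 CPM against 541, 515, 550.4 and 546 CPM (log2 fold change 0.27 ± 0.07 (SE), adjusted p = 0.0445), a level in all 7 libraries far above that of most host markers, and was not called in any of the 7 fits that left out 1 library (adjusted p up to 0.122) or in the blocked fit (adjusted p = 0.0671). Of 15 endothelial markers, 1 fell (Cdh5, which encodes VE-cadherin, -3.03) and all lay below 0 (median -1.80). Their summed level was 25.9 to 35.6 CPM in GFP libraries and 37.1 to 155.4 CPM in controls. Calls among the 15 numbered 0, 0 and 0 without GFP libraries 1 to 3 and 8, 2, 0 and 1 without controls 1 to 4, and Cdh5 was not called in the blocked fit (adjusted p = 0.131). Flt1, the receptor VEGFR1, was at 9.62, 9.67 and 13.8 CPM against 12.9, 42.9, 15.1 and 16.9 CPM (adjusted p = 0.131) and Eng, which encodes endoglin, at 6.11, 7.72 and 6.82 CPM against 7.93, 15.4, 9.69 and 7.37 CPM (adjusted p = 0.167). Of 8 pericyte and smooth muscle markers 1 fell, Notch3, at 8.99, 13.1 and 8.92 CPM against 25.2, 27.8, 18.3 and 19.96 CPM (log2 fold change -1.15 ± 0.19 (SE), adjusted p = 0.0133). Notch3 was not called without GFP library 1 (adjusted p = 0.0577). Acta2, smooth muscle actin, was at 1.12, 0.997 and 1.93 CPM against 1.36, 11.2, 2.04 and 1.70 CPM (adjusted p = 0.191). All 9 adipocyte markers lay above 0 and none was called. Their sum was 50.4 to 94.1 CPM in GFP libraries, 79.2 to 97.1 in mCherry libraries of the same tumours, 18.4 to 24.7 in controls 1 to 3 and 76.1 in control 4. Fabp4, a lipid carrier of fat cells, was at 24.7, 13.3 and 17.2 CPM against 5.55, 9.18, 5.90 and 21.1 CPM (adjusted p = 0.231), and Cfd, which encodes adipsin, at 28.8, 16.2 and 13.8 CPM against 5.80, 4.90, 5.50 and 23.6 CPM (adjusted p = 0.247). Without control 4, 6 of the 9 were called, and without any other library none. Control 4 was thus the highest control for both the adipocyte and the antiviral list, and the part of fat tissue in the results was not tested.

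**Figure D4:**
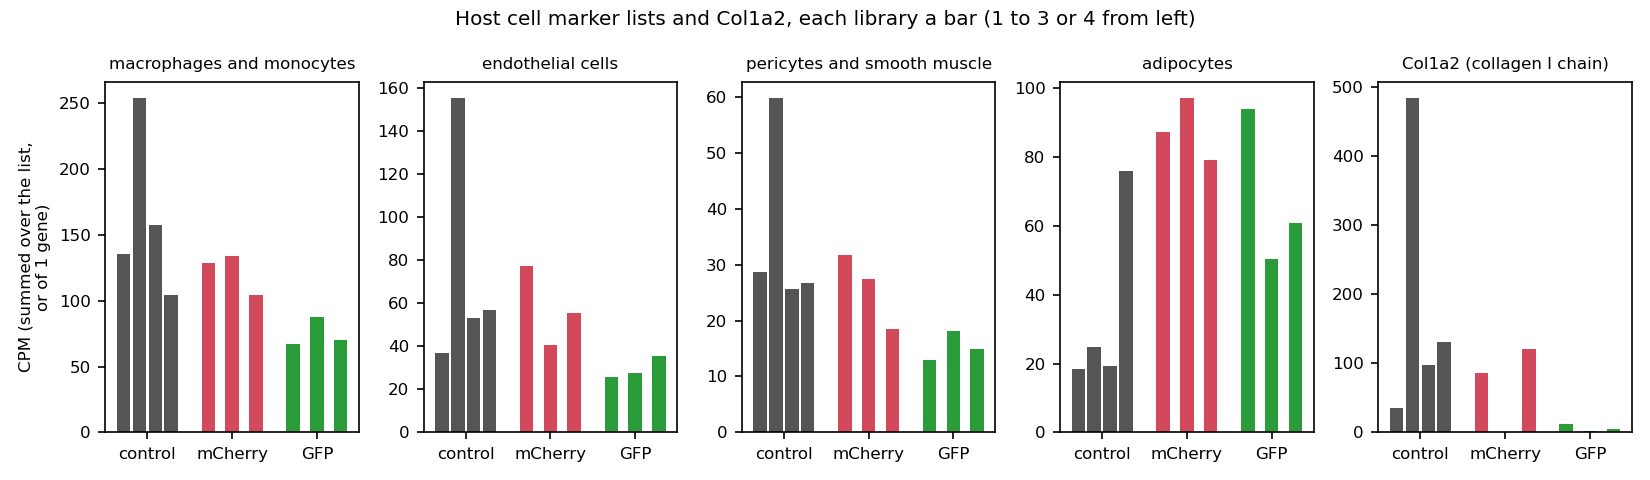
Summed CPM of the marker lists of 4 host cell types, and CPM of Col1a2, with 1 bar per library from library 1 on the left and axes from 0. Grey bars are control tumours, red bars mCherry cells and green bars GFP cells of the attacked tumours. Control 2 is highest for macrophage, endothelial and pericyte markers and for Col1a2, and control 4 is the only control near the attacked tumours for adipocyte markers. Cd14, which was not called, makes up a large part of the macrophage sum.

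Among macrophage markers, Lyz2 (ENSMUSG00000069516, chr10:117277331-117282321, minus strand), which encodes lysozyme, was at 2.98, 2.95 and 2.63 CPM in GFP libraries 1 to 3 and 16.1, 44.9, 29.3 and 13.2 CPM in controls 1 to 4 (log2 fold change -3.18 ± 0.44 (SE), adjusted p = 0.00944). Lyz2 was called in each of the 7 fits that left out 1 library. The complement genes C1qa and C1qb, made mainly by macrophages, were at 1.03, 0.910 and 0.822 CPM against 8.31, 20.7, 13 and 5.74 CPM and 0.781, 0.780 and 0.534 CPM against 5.23, 12.3, 8.95 and 3.48 CPM (log2 fold changes -3.70 and -3.42). All 3 genes had groups that did not overlap. Cd14, which is counted in this list too, was at 35.8, 51.3 and 45.3 CPM against 48.4, 67.5, 34.9 and 34.4 CPM and did not differ beyond its spread (log2 fold change -0.07 ± 0.24 (SE), adjusted p = 0.868). Of the other leukocytes, few markers had enough counts to be tested: 4 of 11 for dendritic cells, 3 of 12 for neutrophils, 2 of 9 for B and plasma cells and 1 of 18 for T and NK cells, and none was called. Batf3 was at 3.22, 2.38 and 3.21 CPM against 4.16, 3.53, 5.43 and 4.12 CPM (adjusted p = 0.105), S100a8 at 1.47, 0.520 and 0.904 CPM against 1.08, 4.19, 1.04 and 0.594 CPM (adjusted p = 0.407), S100a9 at 1.86, 0.260 and 0.123 CPM against 1.43, 5.23, 0.268 and 0.0792 CPM (adjusted p = 0.509), Cd79a at 0.488, 0.390 and 0.493 CPM against 0.539, 0.356, 0.603 and 1.39 CPM (adjusted p = 0.402), Ighm at 0.635, 0.347 and 0.822 CPM against 0.317, 0.267, 0.637 and 0.673 CPM (adjusted p = 0.614) and Lck at 4.35, 4.51 and 5.14 CPM against 5.23, 5.76, 6.30 and 5.58 CPM (adjusted p = 0.184). These levels are low in all 7 libraries. Of 17 complement genes, 2 rose and 3 fell, the falls being C1qa, C1qb and C1qc, and 5 rose in the blocked fit. C2, an early component of the classical pathway, rose in contrast to the C1q genes, at 5.37, 3.99 and 5.30 CPM against 0.793, 1.04, 0.670 and 1.78 CPM (log2 fold change 2.20), and was called in each of the 7 fits that left out 1 library. C4a rose as well (1.15), and its reads may be shared with C4b. With 1 library left out, C4a was called only without control 4 (adjusted p = 0.0181) and not without any other library (0.0578 to 0.138).

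Genes of epithelial identity and of mesenchymal transition both fell where they were called, 5 of 15 and 5 of 21, beside 6.97% of all genes. None rose in either list. Calls numbered 1, 1 and 2 without GFP libraries 1 to 3 and 3, 2, 2 and 5 without controls 1 to 4 for the epithelial list, and 0, 1 and 2 without GFP libraries 1 to 3 and 5, 2, 1 and 4 without controls 1 to 4 for the mesenchymal list. Pkp1 (ENSMUSG00000026413, chr1:135871395-135919207, minus strand), a plakophilin of desmosomes, was at 2.69, 1.82 and 2.92 CPM in GFP libraries 1 to 3 and 15.3, 19.3, 22.2 and 7.37 CPM in controls 1 to 4 (log2 fold change -2.69 ± 0.38 (SE), adjusted p = 0.00944). The groups did not overlap and control 4 was the lowest control. Pkp1 was called in each of the 7 fits that left out 1 library. Krt18 was at 112, 85.3 and 113 CPM against 158, 418, 346 and 254 CPM (log2 fold change -1.51 ± 0.29 (SE), adjusted p = 0.0185). Krt8, its partner, fell by 0.86 on the log2 scale. Krt18 was not called without GFP library 1 (adjusted p = 0.0699) or GFP library 2 (0.0687). Krt77, a keratin of skin appendages, was at 0, 0.130 and 0.329 CPM against 0.825, 8.17, 3.15 and 3.41 CPM (log2 fold change -4.57 ± 0.95 (SE), adjusted p = 0.0216), and Krt77 was not called without GFP library 1 (adjusted p = 0.0789) or GFP library 2 (0.0769) or in the blocked fit (adjusted p = 0.0759). On the mesenchymal side, Itgb3, an integrin chain, was at 30.8, 34.5 and 38.1 CPM against 70.7, 94.2, 54.7 and 54.1 CPM (log2 fold change -0.99 ± 0.19 (SE), adjusted p = 0.0186), and the mCherry cells of the same tumours were above all controls, at 94.6, 98.7 and 119.8 CPM. Itgb3 was not called without GFP library 1 (adjusted p = 0.0781) or GFP library 2 (0.0647). Zeb1, a repressor of E-cadherin, was at 0.244, 0.390 and 0.822 CPM against 1.24, 2.85, 1.41 and 1.98 CPM (log2 fold change -1.91 ± 0.46 (SE), adjusted p = 0.0321), and Zeb1 was not called without GFP library 1 (adjusted p = 0.105), GFP library 2 (0.103), control 2 (0.0602) or control 3 (0.0538). Tnc (-2.44), Prrx1 (-2.37) and Sparc (-0.49) fell as well, the first and the second not in the blocked fit (adjusted p = 0.120 and 0.0895). Tnc and Prrx1 are also made by fibroblasts, and the part of host cells was not tested.

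Of 29 genes of TGF-beta and BMP signalling, 3 rose and 3 fell. Tgfbr3 (ENSMUSG00000029287, chr5:107106570-107289629, minus strand), the coreceptor betaglycan, was at 63.2, 84.1 and 55.4 CPM in GFP libraries 1 to 3 and 27, 20.6, 17.4 and 29 CPM in controls 1 to 4 (log2 fold change 1.52 ± 0.20 (SE), adjusted p = 0.00794). Id2 (ENSMUSG00000020644, chr12:25093799-25097140, minus strand), an inhibitor of basic helix-loop-helix factors, was at 14.2, 10.8 and 13 CPM against 6.03, 4.31, 5.03 and 6.77 CPM (log2 fold change 1.20 ± 0.17 (SE), adjusted p = 0.00998). In both, all GFP libraries lay above all controls, and both were called in each of the 7 fits that left out 1 library. Bmp2 (-2.27) and Bmp1, a procollagen protease (-0.82), fell, Bmp2 not in the blocked fit (adjusted p = 0.0627). Of 21 stemness and Wnt genes, 2 rose and 5 fell, with 1, 2 and 3 without GFP libraries 1 to 3 and 7, 4, 3 and 4 without controls 1 to 4 called. Ngfr (ENSMUSG00000000120, chr11:95568818-95587735, minus strand), the neurotrophin receptor p75, was at 57.5, 48.8 and 70.5 CPM in GFP libraries 1 to 3 and 7.90, 8.67, 8.11 and 24.9 CPM in controls 1 to 4 (log2 fold change 2.26 ± 0.39 (SE), adjusted p = 0.0141). Control 4 stood apart from the other controls and was still under the lowest GFP library. Ngfr was not called without GFP library 1 (adjusted p = 0.0530). Tcf7, a transcription factor of Wnt signalling, was at 1.03, 2.51 and 2.14 CPM against 4.47, 5.70, 5.63 and 5.11 CPM (log2 fold change -1.46 ± 0.28 (SE), adjusted p = 0.0175), and Tcf7 was called in each of the 7 fits that left out 1 library. Aldh1a1, a retinal dehydrogenase used as a stem cell marker, rose (1.80), while Wnt5a (-4.14), Fzd1 (-3.97), Wnt7b (-0.82) and Itga6 (-0.53) fell. Wnt5a (adjusted p = 0.125) and Fzd1 (0.132) were not called in the blocked fit. Both had too few counts to be tested without control 2, control 3 or control 4, so their test rested on the counts of these controls. Neither was called when a single GFP library was left out (adjusted p from 0.0847 to 0.136).

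The largest rises included H19 and Igf2os, both of the imprinted H19 and Igf2 region. H19 (ENSMUSG00000000031, chr7:142575529-142578143, minus strand), a maternally expressed noncoding RNA, was at 9.53, 2.38 and 37.4 CPM in GFP libraries 1 to 3 and 0.920, 1.37, 1.27 and 1.70 CPM in controls 1 to 4 (log2 fold change 3.65 ± 0.76 (SE), adjusted p = 0.0213). The GFP libraries differed widely among themselves, and the lowest was only slightly above the highest control. H19 was not called without GFP library 1 (adjusted p = 0.0577) or control 3 (0.0572) or in the blocked fit (adjusted p = 0.0612). Igf2os, an antisense transcript of Igf2, was at 10.8, 15.4 and 4.11 CPM against 3.74, 0.921, 1.57 and 1.07 CPM (log2 fold change 2.45 ± 0.54 (SE), adjusted p = 0.0254), and Igf2, a growth factor gene, at 163, 435 and 87.5 CPM against 120.5, 14.5, 23.6 and 25.5 CPM (log2 fold change 2.31, adjusted p = 0.0749, not called and chosen after its values were seen). The sources used here do not say whether the counts used strand, so reads of these overlapping genes cannot be told apart. Igf2os was not called without GFP library 1 (adjusted p = 0.0831), GFP library 2 (0.0858) or control 3 (0.0671). Angptl7 (ENSMUSG00000028989, chr4:148495183-148500460, minus strand), a secreted angiopoietin-like protein, was at 463, 698 and 312 CPM in GFP libraries 1 to 3 and 132, 34.1, 85.7 and 62.6 CPM in controls 1 to 4 (log2 fold change 2.64 ± 0.42 (SE), adjusted p = 0.0117). The mCherry cells of the same tumours stayed at the level of the controls, at 64.2, 118 and 69.8 CPM. Angptl7 was called in each of the 7 fits that left out 1 library. Nr3c2, the mineralocorticoid receptor, was at 21.2, 22.1 and 14.6 CPM against 7.36, 2.29, 2.51 and 2.50 CPM (log2 fold change 2.39 ± 0.40 (SE), adjusted p = 0.0132), and Nr3c2 was not called without GFP library 1 (adjusted p = 0.0530). Cdh19, a cadherin, was at 7.13, 3.51 and 3.58 CPM against 1.40, 0.594, 1.00 and 0.990 CPM (log2 fold change 2.24 ± 0.35 (SE), adjusted p = 0.0110), and Cdh19 was called in each of the 7 fits that left out 1 library. Csn3, which encodes kappa-casein of milk, was at 68.8, 31.7 and 73.8 CPM against 18.1, 14.6, 22.8 and 16.2 CPM (log2 fold change 1.70 ± 0.27 (SE), adjusted p = 0.0118), and Csn3 was not called without GFP library 1 (adjusted p = 0.0514). Esr1, the estrogen receptor, was at 2.39, 3.03 and 4.93 CPM against 1.90, 2.85, 2.08 and 3.37 CPM (adjusted p = 0.334). Of the blood and muscle genes, Alas2 (1.71, 1.69 and 1.07 CPM against 0.825, 0.980, 0.838 and 0.871 CPM, adjusted p = 0.0839), Hbb-bs (2.15, 0.737 and 1.11 CPM against 0.317, 0.119, 0.402 and 1.62 CPM, adjusted p = 0.311), Tnni2 (11.2, 12.3 and 10.1 CPM against 9.74, 4.66, 9.72 and 4.36 CPM, adjusted p = 0.165) and Tnnt3 (2.83, 6.68 and 5.14 CPM against 4.44, 3.77, 6.33 and 2.73 CPM, adjusted p = 0.750) were low and not called. Myh1, a myosin of muscle, was the only muscle marker called (0.488, 0.347 and 0.370 CPM against 0.698, 2.46, 1.04 and 1.74 CPM, log2 fold change -1.88 ± 0.48 (SE), adjusted p = 0.0384), and Myh1 was not called without GFP library 1 (adjusted p = 0.0994), GFP library 2 (0.113), GFP library 3 (0.0983), control 2 (0.0691), control 3 (0.0576) or control 4 (0.0548) or in the blocked fit (adjusted p = 0.0576).

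The untargeted mCherry cells of the attacked tumours, which carry the reporter of the controls, gave no called gene against the same 4 controls (0 of 14800, edgeR, smallest adjusted p = 0.251), with 2104 genes at an unadjusted p below 0.05. For GFP cells against controls, 4767 of 14801 genes had an unadjusted p below 0.05. The lack of a call does not show that mCherry cells and controls were alike. Within the attacked tumours, 2782 of 14260 genes (19.5%) differed between GFP and mCherry cells, 1275 higher (8.94%) and 1507 lower (10.6%), in a fit with tumour as a block and 2 residual degrees of freedom. The GFP libraries and the controls each serve in 2 of the 3 fits. Side by side, Angptl7 changed by 2.64 in GFP cells against controls, 0.10 in mCherry cells against controls (adjusted p = 0.928) and 2.52 within the tumours (adjusted p = 5.77e-06). For Hmox1 these were 2.25, 0.23 and 2.01, and for Mki67 -0.85, 0.37 and -1.22. For Usp18 they were 1.57, 1.06 and 0.57, the last with an adjusted p of 0.0648, and the mCherry cells were at 23.4, 51.8 and 31.3 CPM. For C1qa they were -3.70, -2.09 and -1.53. Interferon genes of the antiviral list had a median of 0.39 in the mCherry cells against controls, and macrophage markers one of -1.21, with no gene called in either.

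**Figure D5:**
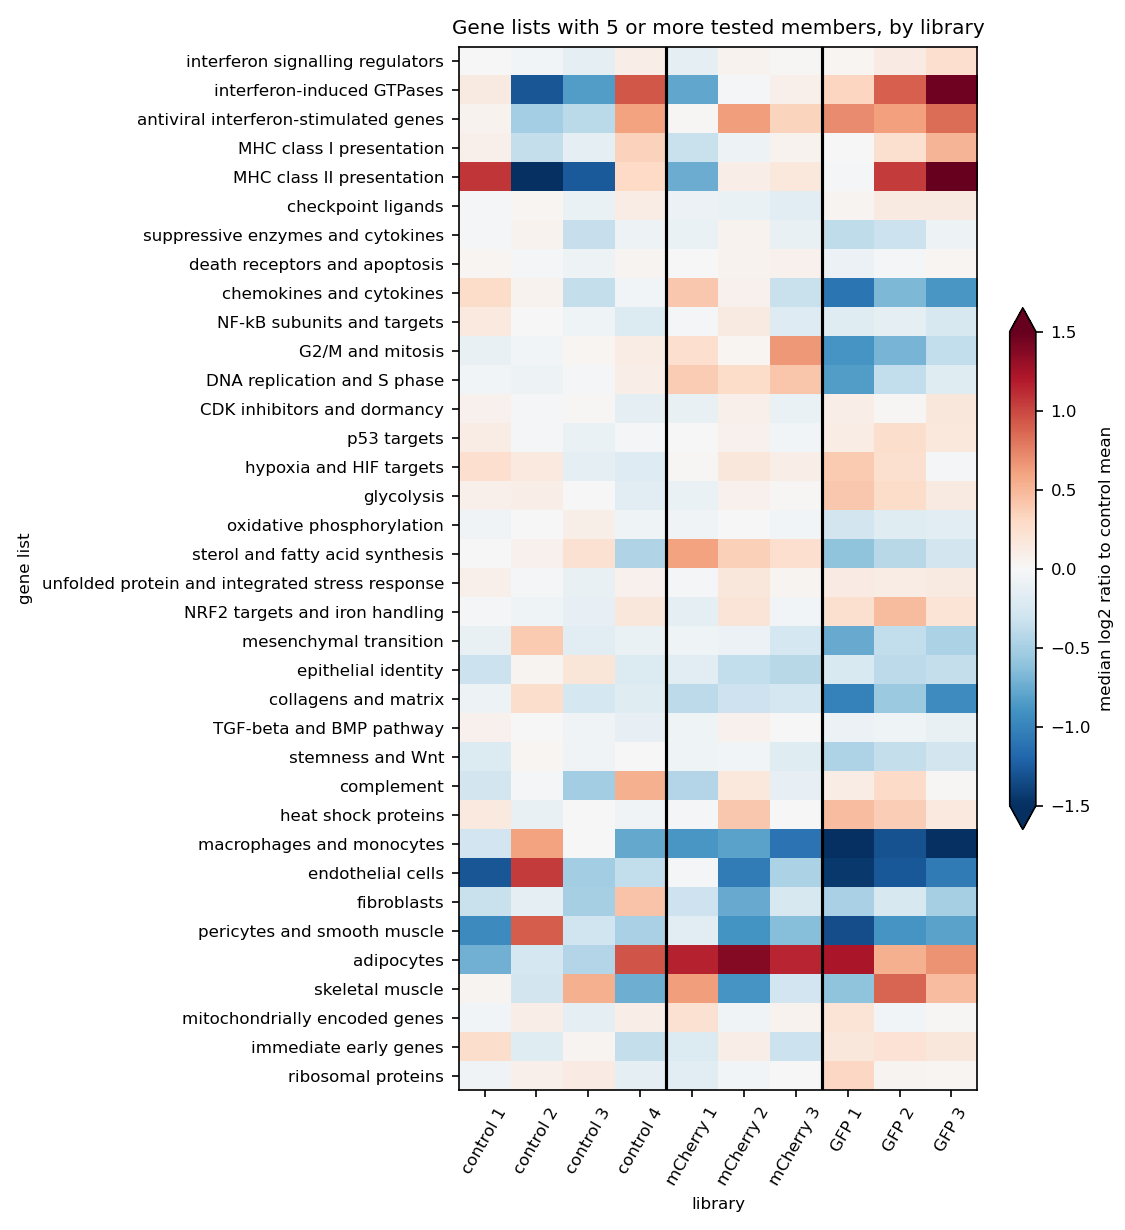
Gene lists with at least 5 tested members by library. Colour gives the median over members of the log2 ratio of CPM to the mean CPM of the controls, both with 0.5 added, from blue (lower) to red (higher), and is cut at 1.5 in either direction. Black lines separate controls, mCherry cells and GFP cells. Controls 1 and 4 are redder than controls 2 and 3 for the GTPase and MHC class II lists, and the 3 GFP columns are blue for mitosis, replication, chemokines and macrophages.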

How the data were processed

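Raw counts per gene, as deposited, came from GENEWIZ, the company that sequenced the RNA for the authors (labels' protocols). The build was mm10, per the submitters' processing notes. Aligner, counter, annotation and use of strand: not given in the sources used here. RNA was extracted by 1 of 2 routes, per the labels' protocols, and which library took which is not given. The sorting gate on CD45 is not given either.

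The deposited table held 49315 genes, of which 176 have no symbol (at most 0.00996% of a library's counts) and were left out. Control columns were matched to the control group only, and library numbers in the text are those of the columns. Coordinates are from GENCODE M21 (GRCm38). Replicates are tumours with separate numbers in the labels.

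Genes kept by filterByExpr (minimum count 10, minimum total 15) were scaled with TMM, then tested by quasi-likelihood in edgeR 4.0.16 (R 4.3.3), 3 against 4 libraries, with no block because the tumours differ. Adjustment was by Benjamini and Hochberg over all genes tested, at 0.05. In simulated counts of this comparison on 14801 genes, 15, 37, 36 and 46 of 50 genes changed 1.5, 2, 4 and 8-fold were called, with 7 false calls of 141. The simulated 1.5 and 2-fold changes were all rises and the 4 and 8-fold changes all falls, so size and direction cannot be told apart there. Alternatives used DESeq2 1.42.0 and limma 3.58.1, other filters, scaling and fits, thinned counts, and each library left out. GFP and mCherry libraries of 1 tumour were paired as the labels number them. Libraries of a group differed beyond counting error (chi-square per degree of freedom 15.4 to 51.8).

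The rule for names took the 10 largest rises and 10 largest falls among called genes with no overlap of groups and a mean log2 CPM of at least 1, the 2 members of smallest p of each of 27 pathway lists, the 2 most abundant members of each of 12 cell type lists, and 14 set genes. Some genes that this rule takes are not reported here. Other genes given with values were chosen after those were seen. The comparison, the members and the 42 lists were chosen with earlier results of these data known. SE is that of the log2 fold change.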

Additional observations from a re-analysis of the deposited data

Results flagged for a closer look

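In the group of 4 controls, 14 values of 151 examined stood far from the other 3 libraries, by Dixon's 95% critical value for the gap over the range. Chance flags about 1 in 20 groups. Control 2 was high for Flt1 (42.9 CPM, others 12.9 to 16.9), Acta2 (11.2 CPM, others 1.36 to 2.04), S100a8 (4.19 CPM, others 0.594 to 1.08), summed endothelial markers (155.4 CPM, others 37.1 to 56.8), summed pericyte and smooth muscle markers (59.8 CPM, others 25.6 to 28.7) and the number of genes with at least 10 counts (15740). Control 4 was high for Ngfr (24.9 CPM, others 7.90 to 8.67), Cfd (23.6 CPM, others 4.90 to 5.81), summed adipocyte markers (76.1 CPM, others 18.4 to 24.7) and summed erythroid markers (4.44 CPM, others 1.28 to 1.71). It was low for the summed suppressive enzymes and cytokines (11900 CPM, others 15370 to 15980). Control 1 was high for Nr3c2 (7.36 CPM, others 2.29 to 2.51) and P4ha1 (407.2 CPM, others 283.3 to 295.5). Control 3 was low for Cxcl9 (2.82 CPM, others 5.82 to 6.09).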

How the results depend on the processing

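Against 1933 calls (902 higher, 1031 lower), leaving out 1 library gave 287 to 2093 calls, 140 to 996 higher and 147 to 1097 lower. Fewer libraries enter those fits. Of the 1933 genes, 279 remained without GFP library 1, 487 without GFP library 2, 829 without GFP library 3, 1399, 910, 798 and 1581 without controls 1 to 4. Every other setting stayed within 1.5 times of each count: DESeq2 size factors in edgeR (1920 calls, 1903 shared), no filter (2261, 1716 shared), 50 counts in 3 libraries (1926, 1755 shared), thinning to 21183324 counts (1916, 1783 shared), a joint fit of 10 libraries (2570, 1840 shared) and DESeq2 (2878, 1916 shared). Limma-voom on 10 libraries with tumour as a random replicate block gave 2394 calls (1247 higher, 1147 lower, 1759 shared), and 61 of the 72 called genes named by rule kept their call. The 11 that did not were H19, Col5a2, Meg3, Lrrc15, Col1a2, Thy1, Krt77, Fndc1, Col12a1, Col3a1 and Pdgfra, all with the same direction. Among lists, calls went from 26 to 16 for mitosis and from 11 to 19 for antiviral genes. Genes that changed sign were not called in any setting concerned: Irf8 (-0.0115 with the block), and, when 1 library was left out, Irf8 (-0.28 to 0.34), Irf1 (-0.15 to 0.28), Cd14 (-0.19 to 0.17), S100a8 (-1.27 to 0.0662), Tnnt3 (-0.11 to 0.45) and Cxcl10 (-0.35 to 0.18). The cause was not tested. With 50 counts in 3 libraries the neutrophil, B cell and erythroid lists had no member left.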

Other observations

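Genes outside the lists also changed, and 202 genes in no list and not named by rule were called in each of the 7 fits that left out 1 library. The examples here were chosen after their values were seen. Ccnd2, which encodes cyclin D2, a cyclin of G1 entry, was higher in the survivors, at 67.5, 59 and 65 CPM against 33.1, 21.4, 22.6 and 29.8 CPM (log2 fold change 1.26 ± 0.15 (SE), adjusted p = 0.00672), while Ccnd1, which encodes cyclin D1, was at 745, 889 and 1268 CPM against 1035, 1212, 1260 and 1521 CPM (adjusted p = 0.204). Gpnmb, a glycoprotein of endosomes and lysosomes, was at 506, 421 and 411 CPM against 141, 180.4, 149 and 184 CPM (log2 fold change 1.45 ± 0.12 (SE), adjusted p = 0.00203). Lysosomal hydrolases that rose were Asah1, acid ceramidase (0.52), and Ids, iduronate sulfatase (0.69). Kitl, the ligand of the receptor KIT, was at 138, 123 and 144 CPM against 75.4, 67.9, 75.8 and 94.6 CPM (log2 fold change 0.79 ± 0.12 (SE), adjusted p = 0.00998), and Col4a5, a chain of basement membrane collagen IV, at 258, 314 and 314 CPM against 188, 127, 165 and 148 CPM (log2 fold change 0.91 ± 0.14 (SE), adjusted p = 0.00999). In all of these called genes the GFP libraries lay above the controls.

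Among the falls, Il1r1, the receptor of interleukin 1, was at 34.8, 53 and 35 CPM against 90.3, 97.6, 89 and 72.1 CPM (log2 fold change -1.09 ± 0.17 (SE), adjusted p = 0.0100), and Fgfr1, a receptor of fibroblast growth factors, at 14.6, 17 and 14.9 CPM against 25.3, 27.3, 35.5 and 28.1 CPM (log2 fold change -0.91 ± 0.13 (SE), adjusted p = 0.00975). Ano1, a calcium-activated chloride channel, was at 50.3, 66.3 and 59.1 CPM against 176, 191, 212 and 153 CPM (log2 fold change -1.64 ± 0.13 (SE), adjusted p = 0.00203). Slc7a5, an importer of large neutral amino acids, was at 95.2, 104 and 93 CPM against 176, 164, 171 and 146 CPM (log2 fold change -0.75 ± 0.09 (SE), adjusted p = 0.00568). Krt76, a keratin, and Evpl, which encodes envoplakin of the cornified envelope, were at 9.82, 7.80 and 8.30 CPM against 45.7, 111, 74.7 and 55.2 CPM and 18.5, 13.7 and 19.8 CPM against 116, 92.1, 117 and 49.5 CPM (log2 fold changes -3.05 and -2.43). Cybb, the NADPH oxidase subunit of phagocytes, fell too (-4.31), beside the macrophage markers, whose part in the result was not tested.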
